A study of Mus musculus with 26 samples.

Results

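Olfactory receptors are the odorant-binding G protein-coupled receptors of the nasal epithelium and form the largest gene family of the mouse genome, lying in tandem clusters on most chromosomes. The promoters studied here are those whose probes carry an Olfr name on a pair of Agilent promoter tiling arrays: 902 names with 19845 of the 474380 probes, out of 26433 gene names in all. Of these, 34 names stand for divergent pairs, in which 1 region serves a receptor and its neighbour. Levels are given for the 878 receptor names with at least 3 probes, of 17873 such names on the arrays.

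Each mature olfactory neuron is known to express 1 receptor allele, while the others are kept silent in compact heterochromatin. Trimethylated lysine 4 of histone H3 (H3K4me3) is laid down by Trithorax-group enzymes at active and poised promoters. Trimethylated lysine 27 (H3K27me3) is laid down by Polycomb repressive complex 2 and typically covers CpG-rich promoters of silent developmental genes. Cultured embryonic stem cells and fibroblasts are not olfactory neurons, so these data describe the family where it has no known role in smell.

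Both marks were measured by chromatin immunoprecipitation on the promoter arrays in 5 mouse lines. E14 and V6.5 are embryonic stem (ES) cells, MEF1 (male) and MEF2 (female) are fibroblasts from mouse embryos, and 1 line consists of induced pluripotent stem (iPS) cells, which are somatic cells returned to an ES-like state. Genotypes, the factors used for reprogramming and passage numbers are not given in the labels, and all lines carry the same entry for culture conditions. RNA was measured on 6 one-colour expression arrays, 2 each for iPS cells, for female MEFs and for V6.5 ES cells grown on feeders. A level of a mark is the mean log2 ratio of immunoprecipitated over input DNA across the probes of a gene, after subtracting the median of its array, so 0 is the median probe of the array. A line is 1 replicate. With 2 ES lines, 2 MEF lines and 1 iPS line, each name has 2 residual degrees of freedom. limma draws the spread of each name toward a value estimated over all names. The p-values measure only the spread between these lines. Differences were tested with limma over all 17873 names and called at a Benjamini-Hochberg adjusted p under 0.05.

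On each of the 20 promoter arrays, 93.6% or more of the probes were well above background in the input channel. Known sets behaved differently from the receptors: 34 of 34 Hox promoters, standard Polycomb targets, reached an H3K27me3 level of 1 in at least 1 line, and 79 of 95 ribosomal protein promoters reached an H3K4me3 level of 1. Scan dates were shared only by the iPS line and 1 other line at a time, and no ES line shared a date with a MEF line, so scan date and the MEF to ES contrast cannot be told apart. The MEF RNA carried macrophage markers, with 5 of 5 above background on both MEF arrays against 1 or 2 of 5 on the flagged ES and iPS arrays. Their part in the results below was not tested. The scanner files filed under ES and MEF RNA hold the values that the deposited value table gives for the other group, on both slides. The value table's labels are followed here, since pluripotency genes are high in its ES columns, with 6 of 6 ES cell markers above background on both ES arrays and 0 and 3 of 6 on the MEF arrays. The RNA counts from the scanner files as filed stand beside the results. They cover 40 receptor genes in place of 106, since they use the shortened scanner file of the second iPS array. Labels and gene set thus changed together. The scanner file of the second iPS array is cut short in the form used here, so its flags were not used.

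The receptor probes differed in base composition from the rest of the array, and a few of them show the range. Their median GC content was 36.7%, against 40.7% over the other probes, and 79.0% of them held no CpG against 56.3%. The probes below carry the strongest or weakest signal of the receptors described later, are given as deposited, on the forward strand of the chromosome where checked (19433 of 19481 exact matches to RefSeq promoters), and have CG in capitals. Their coordinates follow the array annotation, for which no genome build is named in the labels or headers used here. The first 2 are the probes with the highest mean H3K27me3 of Olfr95 and the highest mean H3K4me3 of Olfr94, at chr17:35363892-35363936 and chr17:35350130-35350187. The next 3 are the probes with the highest MEF H3K27me3 of Olfr222 (chr11:59657618-59657677) and Olfr1410 (chr1:92512090-92512149) and the highest MEF2 H3K27me3 of the X-linked Olfr1324 (chrX:45518024-45518082). The last 2 are the probes with the lowest MEF H3K27me3 of Olfr814 (chr10:129388208-129388267) and Olfr487 (chr7:104125459-104125518).
Olfr95: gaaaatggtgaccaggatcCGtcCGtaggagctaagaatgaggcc
Olfr94: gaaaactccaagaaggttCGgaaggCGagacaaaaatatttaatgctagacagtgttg
Olfr222: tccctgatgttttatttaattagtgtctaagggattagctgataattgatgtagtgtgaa
Olfr1410: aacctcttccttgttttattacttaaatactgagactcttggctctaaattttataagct
Olfr1324: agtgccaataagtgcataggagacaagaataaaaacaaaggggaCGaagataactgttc
Olfr814: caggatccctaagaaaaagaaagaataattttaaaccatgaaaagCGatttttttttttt
Olfr487: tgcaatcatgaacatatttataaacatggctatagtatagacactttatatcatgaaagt

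The Olfr95 and Olfr94 probes lie inside the gene by the array's own annotation, as does that of Olfr1324. Those of Olfr222, Olfr1410 and Olfr814 are annotated as promoter probes and that of Olfr487 as downstream. The Olfr222 probe read 2.19 in MEF1 and 3.60 in MEF2, although it has no CpG and 31.7% GC. The Olfr814 probe, at 25% GC, read -2.05 and -2.29 in the same lines. These AT-rich probes stood at opposite ends of the H3K27me3 range.

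H3K4me3 was low at receptor promoters in all 5 lines. None of the 878 receptors reached a level of 1 in any line, against a background of 41.3% of all names. The median receptor stood at -0.61 in E14, -0.70 in V6.5, -0.60 in MEF1, -0.86 in MEF2 and -0.64 in iPS cells, whereas the median over all names lay between 0.41 and 0.60. Receptors also varied little among themselves: their SD was 0.14 to 0.16 in each line, against 0.70 to 1.04 over all names. A level above 0 was reached by 7 receptors in E14, 7 in V6.5, 7 in iPS cells and 0 in either MEF line.

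**Figure D1:**
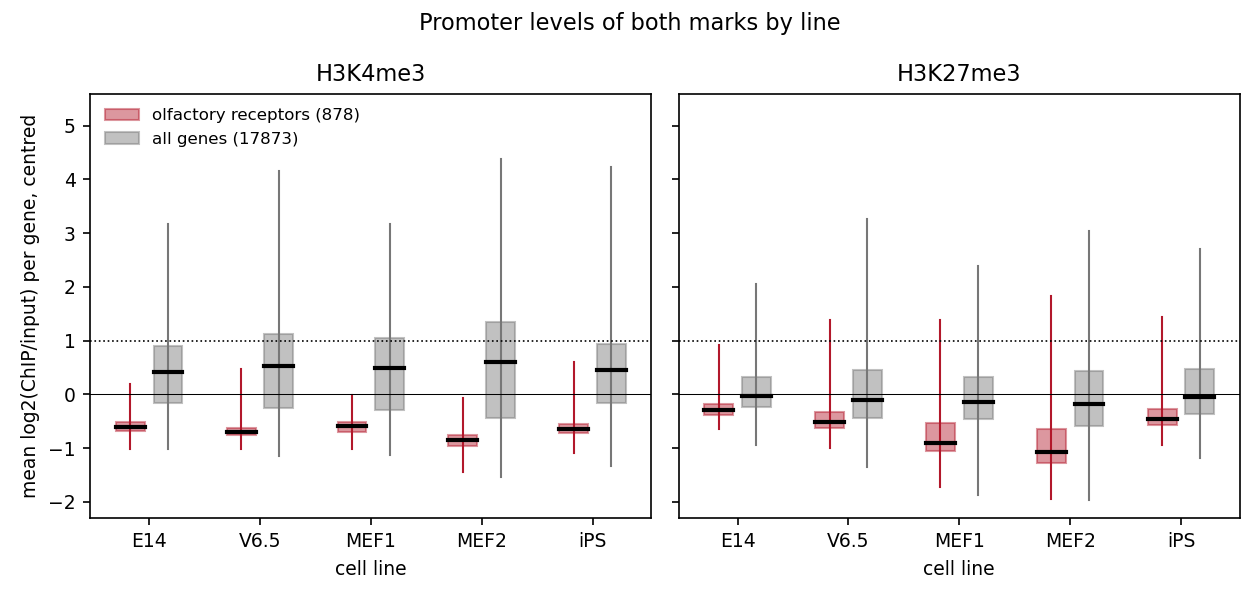
Level of H3K4me3 (left) and H3K27me3 (right) per promoter in the 5 lines, as mean centred log2(ChIP/input). Boxes span the quartiles, thick lines are medians and thin lines run from the lowest to the highest promoter, for 878 receptors (red) and all 17873 names (grey); the dotted line marks a level of 1. Receptor H3K4me3 stays below 1 in every line, and the H3K27me3 median falls from -0.30 in E14 to -1.07 in MEF2.

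The H3K4me3 profile showed no rise at the receptors' annotated starts. A start was placed between the array's promoter and inside probes, which left 567 receptors in the bins beside it. In RefSeq, 72.4% of receptor starts are an ATG, against 5.83% of all starts. Receptor starts and those of other genes are thus unlike, and the profile says little of where receptor transcription begins. In the 1000 bp before and after the start, receptor probes averaged -0.60 and -0.59 in E14 and -0.61 and -0.52 in MEF1. Probes of other genes averaged 0.73 and 0.88 in E14 and 0.74 and 0.91 in MEF1 over the same distances. H3K27me3 of receptors varied little with distance too, averaging -0.70 and -0.60 in MEF1 before and after the start, against 0.11 and 0.10 for other genes.

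**Figure D2:**
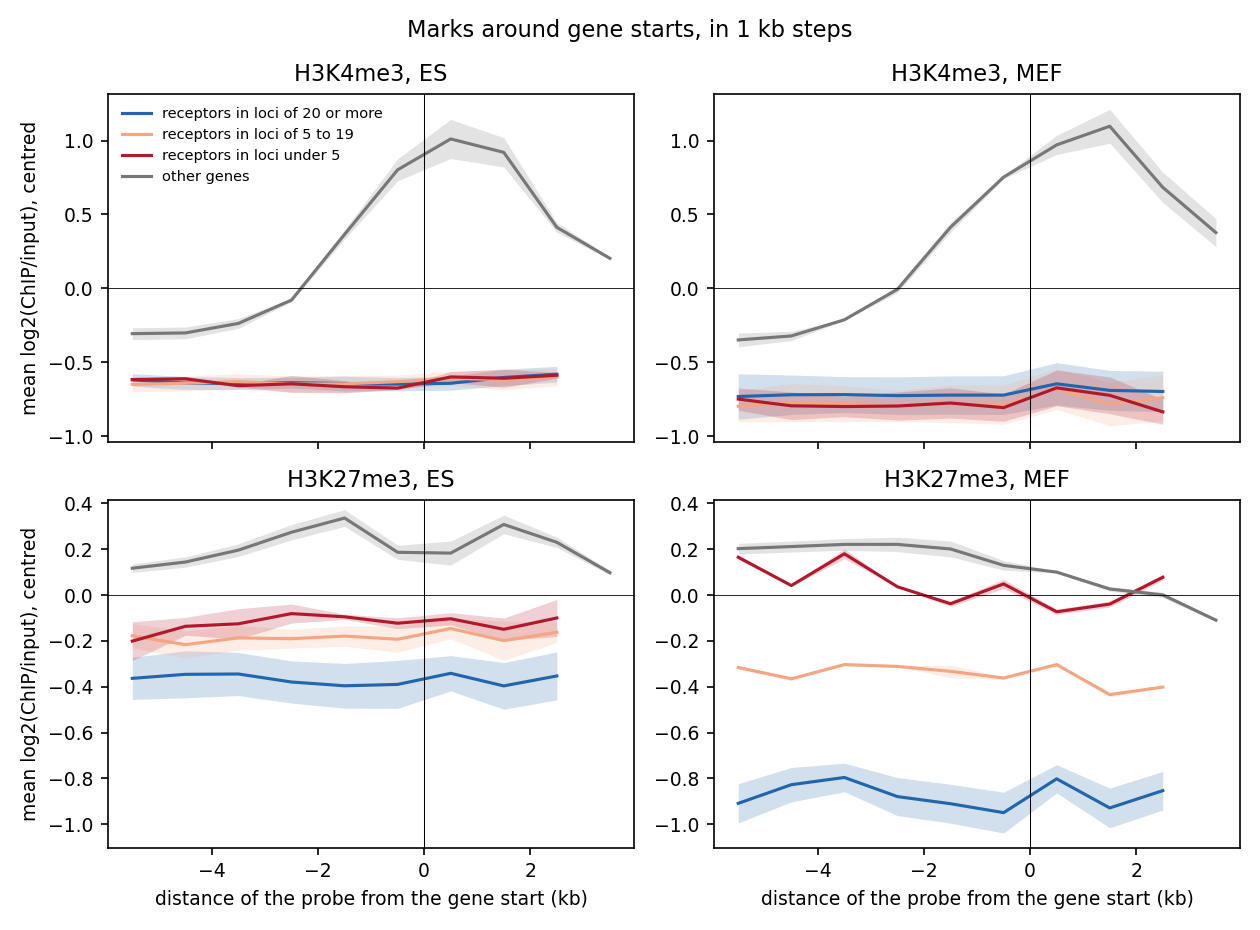
Mean centred log2(ChIP/input) of probes by distance from the gene start, in 1 kb steps, for H3K4me3 (top) and H3K27me3 (bottom) in ES (left) and MEF (right) lines. Lines are means of the 2 lines of a group and bands span both lines. Receptors are split by the number of receptors in their locus, and other genes are in grey. Other genes peak in H3K4me3 near the start, at 0.88 in E14 just after it, while receptor curves stay near -0.6 in ES lines. Most receptor starts in RefSeq are starts of translation.

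A few receptors departed from this flat background, and those with a level above 0 had it in ES or iPS cells and in neither MEF line. The receptor with the highest H3K4me3 in any 1 line was Olfr724, at 0.07 in E14, -0.46 in V6.5, -0.50 in MEF1, -0.92 in MEF2 and 0.60 in iPS cells. It has 6 probes, and its iPS value moves with 1 downstream probe. Olfr94 came next, at 0.16, 0.47, -0.01, -0.06 and 0.33 in the same order, so both ES lines and the iPS line were above both MEF lines. Its 3 highest neighbouring probes averaged 2.12 in E14, 2.61 in V6.5, 1.503 in MEF1, 1.24 in MEF2 and 2.34 in iPS cells. The same measure of H3K27me3, taken at its own highest window, was 1.65, 1.76, 1.07, 1.44 and 2.16, so both marks had high probes at this gene. The arrays do not show whether both marks sit on the same chromatin.

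Olfr95, in the same locus on chromosome 17, had a level of H3K4me3 of 0.14 in E14, 0.13 in V6.5, -0.39 in MEF1, -0.41 in MEF2 and 0.21 in iPS cells. Its highest window of H3K4me3 was 2.00 in E14, 1.80 in V6.5 and 1.77 in iPS cells against 0.05 and 0.16 in the MEF lines. Its H3K27me3 window was high in all 5 lines, from 1.96 in E14 to 2.60 in MEF2. In all, 9 receptors had an H3K4me3 window of 1 or more in at least 1 line: Olfr94, Olfr95, Olfr38, Olfr744, Olfr724, Olfr360, Olfr153, Olfr1495 and Olfr1419. Olfr38, Olfr153 and Olfr1495 were higher in ES and iPS cells than in MEFs, though Olfr153 reached only 0.75 in V6.5. Olfr1495 stood at 1.25 in E14, 1.03 in V6.5 and 1.05 in iPS cells against -0.18 and -0.42 in MEF1 and MEF2. Olfr744 and Olfr360 were high in MEF2 alone, at 1.54 and 1.40, with 0.16 and 0.07 in MEF1.

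Between MEFs and ES cells, 4 receptors changed in H3K4me3 (background 8.2%), all lower in MEFs, where 3.63% of all names were lower, and 0 were higher, where 4.57% of all names were. Olfr514 fell by 0.82 (SE 0.17, limma adjusted p = 0.0105), from 0.03 and 0.13 in E14 and V6.5 to -0.69 and -0.79 in MEF1 and MEF2. Olfr773-ps1, a pseudogene by its name, fell by 0.81 (SE 0.17, limma adjusted p = 0.0108), from 0.20 and 0.30 to -0.51 and -0.62. Olfr112 fell by 0.65 and Olfr503 by 0.61 (limma adjusted p = 0.0361 and 0.0464). In each of these 4 the ES lines lay near 0 and the MEF lines near the family's median. By the weaker rule that both MEF lines lie on one side of both ES lines, 256 receptors were lower (background 25.3%) and 33 higher (background 26%). None had the groups 1 log2 unit or more apart (background 0.778% higher and 0.543% lower). The calls depend on single lines: 0 to 32 were found when 1 line was left out, with 0 without V6.5 and 32 without MEF1. With arrays scaled to a common spread 6 were higher and 25 lower. The median over receptors of the MEF minus ES difference was -0.09 (all names 0.02), and 0.03 without MEF2.

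In iPS cells no receptor differed in H3K4me3 from ES cells by limma's adjusted p (background 0%), and 3 had an unadjusted p under 0.05. The line lay above both ES lines for 296 receptors (background 29.5%) and below both for 292 (background 31.7%). Against MEFs, 2 receptors were higher in iPS cells (background 0.878%) and 0 lower (background 1.02%): Olfr724 by 1.31 (SE 0.26, limma adjusted p = 0.0268) and Olfr514 by 1.01 (SE 0.21, limma adjusted p = 0.0306). For Olfr514 the iPS level was 0.27, above both ES lines. The line lay above both MEF lines for 386 receptors (background 33.8%) and below both for 63 (background 40.7%). Without MEF1 the count of calls was 9, and with arrays scaled to a common spread 12 were higher and 7 lower. The iPS line has no second line, so its spread is taken from the other lines.

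H3K27me3 separated MEFs from ES cells over most of the family. The median receptor stood at -0.30 in E14 and -0.51 in V6.5 and at -0.91 in MEF1 and -1.07 in MEF2, with iPS cells at -0.47. The median MEF minus ES difference was -0.55, against -0.11 over all names. limma called 498 of the 878 receptors lower in MEFs (background 17.1%) and 45 higher (background 8.67%), 543 in all (background 25.7%). Both MEF lines were below both ES lines for 698 receptors (background 41.6%) and above them for 93 (background 23.8%). At least 1 log2 unit lay between the groups for 6 receptors lower (background 1.58%) and 5 higher (background 0.705%). Leaving out 1 line gave 117 to 502 calls, with 117 without MEF2 and 176 without E14.

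This fall moves with base composition and with the spread of each array. Receptors whose probes averaged under 35% GC had a median MEF minus ES difference of -0.66 (n = 404), those of 35 to 37% -0.53 (n = 279), those of 37 to 39% -0.23 (n = 108) and those of 39% or more 0.23 (n = 87). After subtracting the trend of the log ratio on probe GC in each array, an alternative chosen after seeing the data, 267 receptors were lower and 64 higher, and the median difference was -0.35 against -0.06 over all names. With arrays scaled to a common spread it was -0.285. The part of amplification and hybridisation in this trend was not tested.

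Among probes without any CpG, receptors lay below other genes of like GC content in every GC class, with a smaller gap at the GC-rich end. At 30 to 35% GC, receptor probes had MEF medians of -1.04 and -1.25 in MEF1 and MEF2, against -0.36 and -0.38 for other genes. At 50% GC or more they had 0.18 and 0.14, against 0.23 and 0.23. In ES cells at 30 to 35% GC the gap was smaller, with -0.32 and -0.56 for receptors against -0.07 and -0.26. No test was made over probes, which share regions.

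**Figure D3:**
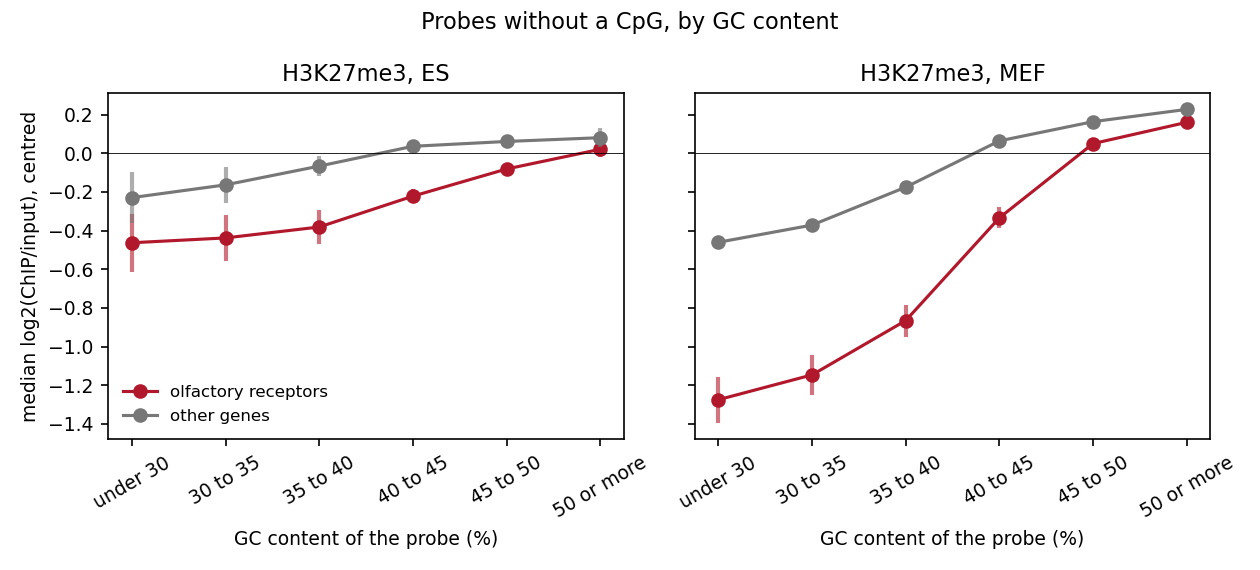
Median centred log2(ChIP/input) of H3K27me3 for probes that hold no CpG, by GC content of the probe, in ES (left) and MEF (right) lines. Points are means of the 2 line medians and bars span both lines, for receptor probes (red) and probes of other genes (grey). In MEF lines receptor probes of 30 to 35% GC lie at -1.04 and -1.25 and come close to other genes at 50% GC or more.

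The change followed the size of the receptor cluster. Receptors on 1 chromosome with at most 1 Mb between neighbours were joined into 48 loci, of which 47 held a measured receptor. In the 13 loci of 20 or more receptors (663 measured), MEF medians of H3K27me3 were -0.97 and -1.14, with 434 receptors lower and 16 higher than in ES cells. In the 16 loci of 5 to 19 (184 measured) they were -0.53 and -0.61, with 62 lower and 20 higher. In the 18 loci under 5 (31 measured) they were 0.11 and 0.09, with 2 lower and 9 higher. ES medians moved less, from -0.32 and -0.54 in the large loci to -0.12 and -0.21 in the small ones.

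After adjustment for GC the same order held, with median MEF minus ES differences of -0.39, -0.11 and 0.31 from large to small loci. The mean probe GC of a receptor rose alongside, with medians of 34.8%, 36.6% and 37.7%. H3K4me3 had no common order over the lines: from large to small loci its medians were -0.59, -0.64 and -0.67 in MEF1, -0.85, -0.91 and -0.81 in MEF2, and -0.66, -0.59 and -0.56 in iPS cells.

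**Figure D4:**
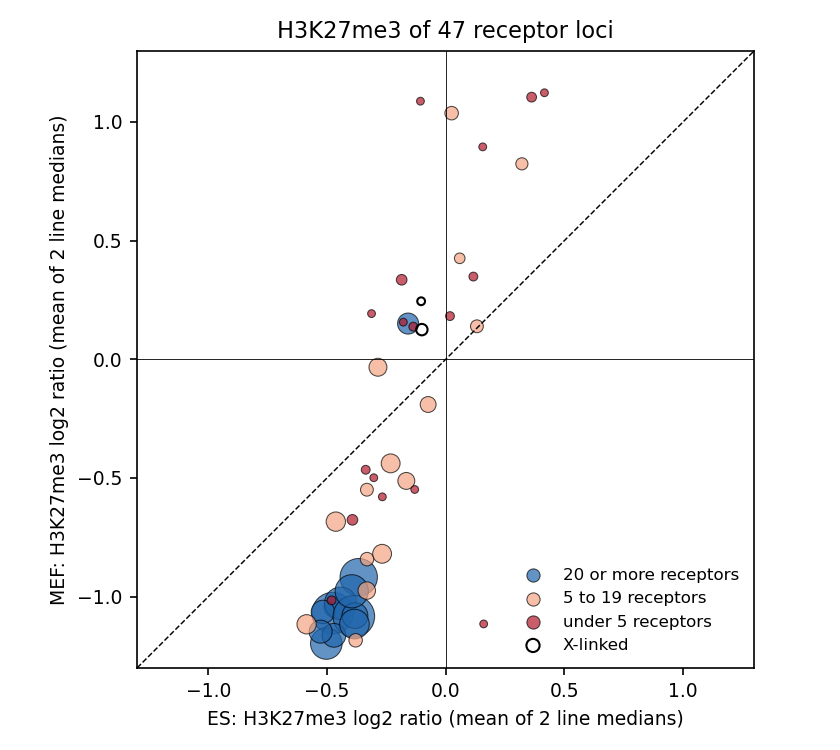
H3K27me3 of the 47 receptor loci in ES cells (x axis) and MEFs (y axis), each as the mean of the 2 lines' medians over the receptors of the locus, on the centred log2 scale. Point area grows with the number of measured receptors, colours give the size class, open points are X-linked, and the dashed line marks equal levels. Loci of 20 or more receptors sit together near -1 in MEFs, except the chromosome 11 locus from Olfr30 to Olfr225, while loci of fewer receptors spread from below -1 to above 1.

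The 3 largest loci behaved alike. On chromosome 2 from Olfr996 to Olfr1274 (chr2:85419058-90253841), 66 of 97 measured receptors were lower in MEFs and 0 higher. On chromosome 9 from Olfr151 to Olfr986 (chr9:37657118-40117967), 75 of 97 were lower and 1 higher. On chromosome 7 from Olfr543 to Olfr691 (chr7:98521828-101399309), 42 of 78 were lower and 0 higher. The last of these loci encloses the beta-globin genes, of which Hbb-b1 and Hbb-bh1 were lower in MEFs in H3K27me3 and Hbb-b2 and Hbb-y were not called. Hbb-b1 went from 0.12 and -0.05 in ES lines to -0.63 and -0.85. Trim68, a ubiquitin ligase gene within the same borders, was marked by H3K4me3 at 1.45 and 1.80 in MEF1 and MEF2, against 0.68 and 0.61 in the ES lines. Across all loci of 20 or more receptors, 34 of 108 enclosed genes of other families reached an H3K4me3 level of 1 in some line. This is a smaller share than the background of 41.3%, and none of the receptors did.

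Within the 13 large loci, the receptors at the borders differed from those inside. The 26 outermost receptors had a median MEF minus ES difference of -0.24, the next 26 -0.38, the 3 places after these on each side -0.47 (n = 78) and those further inside -0.64 (n = 533). Of the 26 outermost, 6 were higher and 4 lower in MEFs, against 5 higher and 384 lower among the 533. After GC adjustment the medians were -0.04, -0.22, -0.28 and -0.42, and median probe GC was 36.1%, 35.9%, 35.6% and 34.6%. This split was chosen after seeing the values and is given as a description.

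Single border receptors ranged from rises to falls. Olfr986, last on its side of the chromosome 9 locus, had the largest rise of the 26 outermost. It read -0.10 in E14, -0.51 in V6.5, 0.61 in MEF1, 0.75 in MEF2 and -0.12 in iPS cells (MEF minus ES 0.98, limma adjusted p = 0.010). The other outermost receptors that were higher in MEFs were Olfr368 (0.84), Olfr30 (0.54), Olfr225 (0.55), Olfr412 (0.58) and Olfr90 (0.55). The 4 that were lower were Olfr24, which fell by 0.93, Olfr827, by 0.87, Olfr136, by 0.61, and Olfr693, by 0.54.

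Only 27 receptors reached an H3K27me3 level of 1 in at least 1 line, where 18.3% of all names did. Of these, 0 were in E14, 4 in V6.5, 17 in MEF1, 23 in MEF2 and 4 in iPS cells, and 14 reached it in both MEF lines. The threshold cut through a continuous range, with Olfr1412 at 1.01 and Olfr1322 at 1.01 just inside and Olfr1420 and Olfr1416 at 0.96 just outside.

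A run of 8 neighbouring receptors on chromosome 1, from Olfr1416 to Olfr12 (chr1:92388621-92530226), was higher in MEFs at every member. Olfr1410 read 0.02 in E14, 0.07 in V6.5, 1.37 in MEF1, 1.42 in MEF2 and 0.67 in iPS cells, a MEF minus ES difference of 1.35 (SE 0.13, limma adjusted p = 0.00516). Its neighbour Olfr1411 read -0.05, -0.12, 1.17, 1.25 and 0.41 in the same lines. Over the 8, the line medians were 0.03, 0.02, 1.02, 1.05 and 0.41, and the differences ran from 0.58 at Olfr12 to 1.35 at Olfr1410. The MEF lines never overlapped the ES lines, and iPS cells lay between. Probes of these receptors averaged 40.4 to 43.1% GC, at the upper end of the family.

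The largest rise of the family was at Olfr1514 on chromosome 14 (chr14:47369846-47374996), from -0.15 and -0.04 in ES lines to 1.26 and 1.30 in MEFs, with 0.36 in iPS cells (difference 1.37, SE 0.13, limma adjusted p = 0.00516). Its locus holds 36 receptors, of which 24 were lower and 3 higher. The 3 higher ones were Olfr1514 itself, the adjoining Olfr221 (0.87) and Olfr1513 (0.64). On chromosome 11, the locus of 23 receptors from Olfr30 to Olfr225 went against the other large loci, with 7 receptors higher and 0 lower. It holds Olfr223, which rose by 1.28 (SE 0.17, limma adjusted p = 0.00572), and Olfr222.

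Olfr222 had the highest H3K27me3 of the family in 1 line, at 1.84 in MEF2, with 0.48 in E14, 0.84 in V6.5, 1.30 in MEF1 and 1.04 in iPS cells. Small loci gave further cases. The lone receptors Olfr371 and Olfr370 on chromosome 8 rose by 1.19 and 0.74, and the lone Olfr49 on chromosome 14 by 0.71. In the group of 3 on chromosome 11, Olfr462 rose by 0.74 and Olfr464 by 0.67, while Olfr463 read 0.56 and 1.04 in ES lines and 1.19 and 1.53 in MEFs (limma adjusted p = 0.0839). The peroxidase genes next to them had like levels in MEF1 and MEF2: 1.02 and 1.20 at Mpo, 1.31 and 1.54 at Lpo, and 1.04 and 1.17 at Epx.

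**Figure D5:**
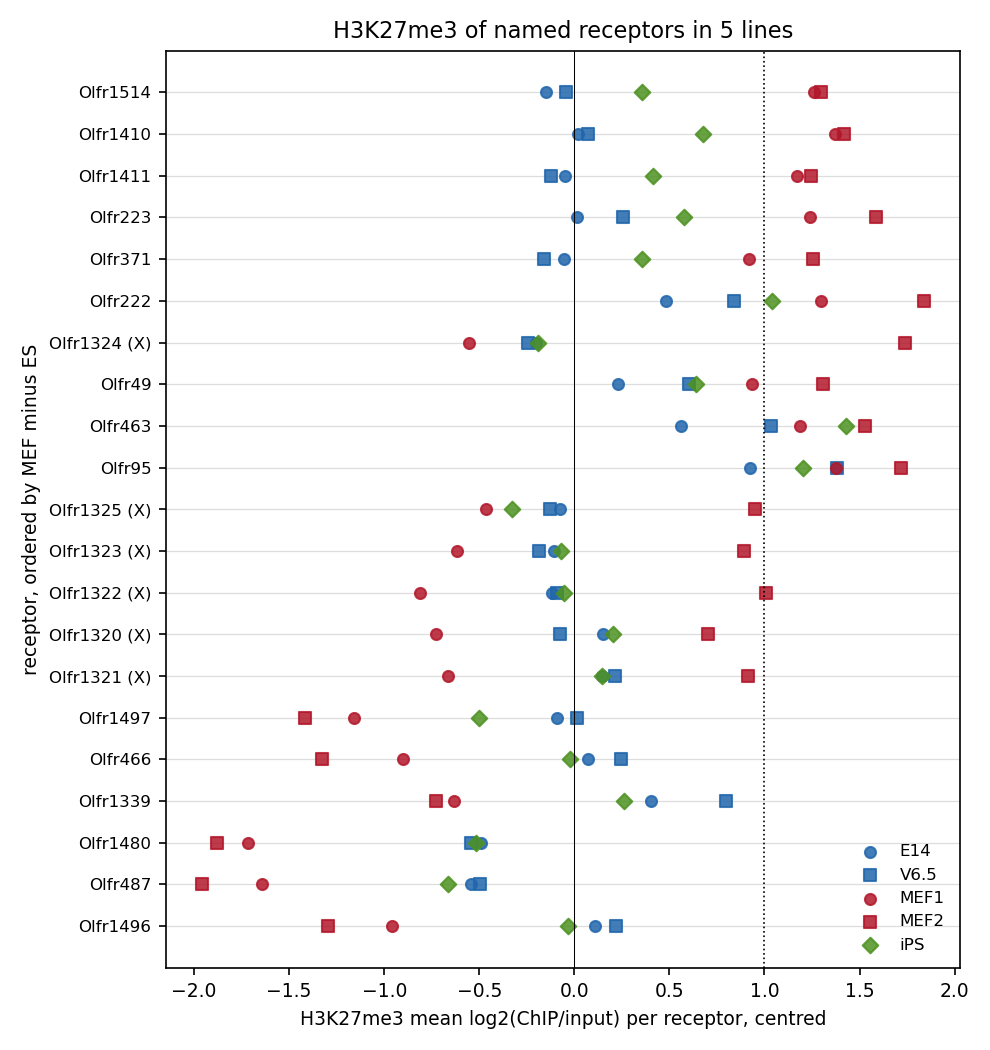
H3K27me3 level, as mean centred log2(ChIP/input), of named receptors in each of the 5 lines, ordered by MEF minus ES. Blue points are ES lines, red points MEF lines and green diamonds iPS cells; the dotted line marks a level of 1, and X marks X-linked receptors. Olfr1514, Olfr1410 and Olfr1411 have both MEF lines above 1 and both ES lines near 0, and the X-linked receptors have MEF2 apart from the other 4 lines.

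The largest falls began at different ES levels and ended well below 0 in MEFs. Olfr1496 fell by 1.29 (SE 0.16, limma adjusted p = 0.00545), from 0.11 and 0.22 to -0.96 and -1.30. Olfr1339 fell by 1.28, from 0.40 in E14 and 0.80 in V6.5 to -0.63 in MEF1 and -0.73 in MEF2, which makes it one of the few receptors with some ES signal that was lost in MEFs. Olfr466, alone in its locus on chromosome 13, fell by 1.28, from 0.07 and 0.25 to -0.90 and -1.33, against the direction of most small loci. Olfr487, Olfr1480 and Olfr1497 were the others among the 10 called with the largest difference, and fell by 1.28, 1.28 and 1.25. Olfr487 and Olfr1480, with 4 probes each, began at -0.54 and -0.49 in E14, below the family's median there.

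The 6 X-linked receptors, Olfr1320 to Olfr1324 and Olfr1325, set the female MEF2 line apart from all others. Olfr1324 read -0.20 in E14, -0.24 in V6.5, -0.55 in MEF1, 1.74 in MEF2 and -0.19 in iPS cells. MEF2 minus MEF1 ran from 1.41 to 2.29 over the 6, with a median of 1.55, and was 1 or more in 6 of 6. Among the 872 autosomal receptors the median was -0.15, and 0 reached 1. Other X-linked names had a median of 0.62, with 143 of 601 at 1 or more, and 1 of 16385 other autosomal names reached 1. In female cells 1 X chromosome is silenced and is known to carry H3K27me3. With 1 male and 1 female MEF line, sex and line cannot be told apart, and no test was made. Since the 2 MEF lines disagreed, none of the 6 was called between MEFs and ES cells.

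In H3K27me3 the median receptor level of the iPS line, -0.47, lay between those of E14 (-0.30) and V6.5 (-0.51). No receptor was called between iPS and ES cells (limma, background 0%), and 13 had an unadjusted p under 0.05. The iPS line lay above both ES lines for 150 receptors (background 27.7%) and below both for 284 (background 20%). The median difference was -0.05, against 0.01 over all names, and turned to 0.06 without E14. Across receptors, the iPS line correlated at r = 0.88 with E14 and with V6.5 and at 0.84 to 0.85 with the MEF lines, where the MEF lines correlated with each other at 0.95 and the ES lines at 0.91. ES lines correlated with MEF lines at 0.72 to 0.74. Across the 16995 other names the iPS line stood further apart from MEFs, at 0.96 with both ES lines against 0.776 with MEF1 and 0.765 with MEF2. The receptor correlations are over 878 promoters that share arrays and base composition, and none of these correlations carries a test.

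Against MEFs, 58 receptors changed (background 6.16%), with 54 higher in iPS cells (background 5.14%) and 4 lower (background 1.02%). The iPS line lay above both MEF lines for 728 (background 54.5%) and below both for 94 (background 29.7%). The largest rise was at Olfr1480, by 1.29 (SE 0.17, limma adjusted p = 0.0232), from -1.72 and -1.88 in MEFs to -0.51 in iPS cells. The 4 lower ones were Olfr1514 by 0.92, Olfr1415 by 0.86, Olfr1411 by 0.80 and Olfr1410 by 0.72, all of them receptors that were higher in MEFs than in ES cells. At these 4 the iPS levels, 0.36, 0.22, 0.41 and 0.67, were still above both ES lines. Both contrasts with MEFs share the MEF lines, so they are not independent. With the deposited ratio, not centred, 28 were higher and 12 lower. The count of 58 was 0 under GC adjustment, normexp background correction or the median of probes, and 11 to 111 with 1 line left out, the extremes being without MEF2 and without MEF1.

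Arrays scanned on the same date gave the same comparison within a date. Over the receptors of the first array, the iPS line minus E14 had a median H3K27me3 difference of -0.15 (all names -0.02), and over those of the second array iPS minus V6.5 gave 0.05 (all names 0.05). For H3K4me3, iPS minus MEF2 gave 0.26 on the first array (all names -0.19) and iPS minus E14 gave -0.07 on the second (all names 0.06).

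Other tandem gene families, in lists chosen with earlier results of these data known, differed among themselves. The 112 vomeronasal receptors, which detect pheromones, had a median MEF minus ES difference in H3K27me3 of -0.53, close to the olfactory receptors' -0.55. Of them 62 were lower (background 17.1%) and 2 higher (background 8.67%). The 52 taste and trace amine receptors had a median of -0.09, near the -0.11 over all names, but their levels were split. Of them 24 were lower and 13 higher, both above the same background shares, and their MEF1 quartiles were -1.08 and 0.28. The 25 keratin-associated proteins, hair shaft components, had -0.37, with 8 lower (background 17.1%) and 4 higher (background 8.67%). In none of these 3 families did a promoter reach an H3K4me3 level of 1.

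Genes that serve odour detection outside the receptor family gave calls in numbers near the shares over all names. Of 17 olfactory transduction genes found of 18 listed, 1 was higher and 2 lower in MEFs in H3K27me3 (background 8.67% and 17.1%). Gng13, the olfactory G protein gamma subunit, rose from -0.05 and -0.07 to 0.51 and 0.79, and Adcy3, the cyclase that makes the second messenger, fell from 0.52 and 0.64 to -0.22 and -0.35. Pde4a, a phosphodiesterase, fell by 0.51. In H3K4me3, 0 were higher and 1 lower (background 4.57% and 3.63%). The lower one was Grk3 (named Adrbk2 on the array), the kinase that desensitises receptors, which went from 0.33 and 0.37 to -0.41 and -0.39. Slc24a4, the exchanger that ends the response, held H3K27me3 of 1.12 or more in all 5 lines.

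Of 19 genes found of 21 listed for receptor choice, H3K27me3 was higher in MEFs at 1, Neurod1, and lower at 1, Ebf1 (background 8.67% and 17.1%). Ebf1, a factor that binds receptor promoters in neurons, went from 1.11 and 1.90 in ES lines to 0.30 and 0.32 in MEFs. Lhx2, the homeodomain factor at receptor enhancers, held H3K27me3 of 1.88 to 3.05 in all 5 lines. In H3K4me3, Emx2 was higher and Neurod1 lower in MEFs (background 4.57% and 3.63%). Kdm1a (Aof2 on the array), the demethylase that releases a chosen receptor, read 2.13 to 2.64 in H3K4me3 and stayed below 0 in H3K27me3.

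RefSeq promoter windows of GRCm38.p6, running 250 bases before to 50 after the annotated start, were matched to 742 of the 902 names. Values of receptor windows are over all 948 in RefSeq, including receptors not matched to the arrays, except where n is given. For 72.4% of the receptor windows the annotated start is an ATG, against 5.83% of all windows, so most mark the start of translation. The median receptor window held 1 CpG and 35% GC, against 7 CpG and 52.7% over all windows. Receptors that were higher in MEFs had windows with 46.3% GC (n = 41) and those that were lower 33.8% (n = 410). TAATTA, the homeodomain core, was searched on both strands and occurred in 18.6% of receptor windows and 5.29% of all. TATAAA occurred in 41.0% and 13.6%, and the palindromic Ebf motif in 0.527% and 0.904%. A match is a string of letters in AT-rich sequence and not a bound site.

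To show this contrast in full sequence, the 250 bases before the start follow for the 2 receptors with the highest H3K27me3 in 1 line, and the 2 with the lowest mean, among those whose annotated start is not an ATG (GRCm38.p6, minus strand, CG in capitals). Olfr49 is at chr14:54282926-54283175 and Olfr1366 at chr13:21538028-21538277. Olfr389 is at chr11:73780590-73780839 and Olfr724 at chr14:49961097-49961346.
Olfr49: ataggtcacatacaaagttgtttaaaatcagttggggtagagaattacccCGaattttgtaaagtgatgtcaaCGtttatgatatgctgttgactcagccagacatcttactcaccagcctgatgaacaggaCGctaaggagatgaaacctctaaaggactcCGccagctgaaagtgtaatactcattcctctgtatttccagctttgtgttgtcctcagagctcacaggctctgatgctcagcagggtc
Olfr1366: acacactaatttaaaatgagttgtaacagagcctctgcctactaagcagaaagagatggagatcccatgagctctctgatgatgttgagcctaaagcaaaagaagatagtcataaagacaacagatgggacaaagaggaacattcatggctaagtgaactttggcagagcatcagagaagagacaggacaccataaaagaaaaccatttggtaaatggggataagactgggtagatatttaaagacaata
Olfr389: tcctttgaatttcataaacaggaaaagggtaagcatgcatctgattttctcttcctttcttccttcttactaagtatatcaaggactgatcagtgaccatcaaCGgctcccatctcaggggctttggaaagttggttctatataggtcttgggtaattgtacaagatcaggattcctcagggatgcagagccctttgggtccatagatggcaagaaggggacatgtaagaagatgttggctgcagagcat
Olfr724: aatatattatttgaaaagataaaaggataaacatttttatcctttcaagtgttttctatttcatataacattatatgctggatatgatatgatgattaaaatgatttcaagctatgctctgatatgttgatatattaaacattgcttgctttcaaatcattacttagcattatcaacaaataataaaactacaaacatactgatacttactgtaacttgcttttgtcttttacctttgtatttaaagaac

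These windows hold 4, 0, 1 and 0 CpG and 44.0%, 39.2%, 43.6% and 24.0% GC in that order, and none of the 3 motifs. H3K27me3 in MEF1 and MEF2 was 0.94 and 1.31 at Olfr49, 1.08 and 1.22 at Olfr1366, -1.53 and -1.57 at Olfr389 and -1.45 and -1.51 at Olfr724. Olfr1366 and Olfr389 thus go against the GC order within this set of 4.

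RNA of the receptors was mostly not measured above background. Of 908 receptor genes on the expression arrays, 106 (background 62.5% of all genes) passed the background flag on each flagged array of some group. This took both arrays for ES cells and for MEFs but 1 array for iPS cells. Both arrays were passed by 42 receptor genes in ES cells and 42 in MEFs. The count of 106 became 541 without the first MEF array and 60 without the first iPS array. The duplicate MEF array stood apart: 515 receptor genes were above background on it, against 51 on the first MEF array and 52, 65 and 92 on the flagged ES and iPS arrays. It had 86.7% of all probes above background, against 46.0 to 58.4% on the others. Olfactory neuron markers moved with it, with 7 of 7 above background on this array against 2 or 3 on the others. Their summed level was 1.9 log2 units there, -0.38 on the first MEF array and -1.6 to -0.89 on the ES and iPS arrays. This rise was not particular to them. From the first MEF array to the duplicate, ES cell markers rose from -2.43 to 0.77 in sum and epithelium markers from 0.17 to 0.93. Fibroblast markers fell from 9.89 to 8.91, and macrophage markers stayed at 1.92. Neuron and glia markers were above background at 4 of 4 on the duplicate MEF array, against 1 on the first MEF array and 2 or 3 on the others. Their summed level did not rise with the flags. It was 1.54 on this array, below 1.89 on the first MEF array and 2.15 and 2.55 on the ES arrays, and above 0.81 and 0.7 on the iPS arrays. The sum mostly follows Tubb3, the highest of the 4, which fell from 1.84 on the first MEF array to 1.06. Over the same arrays Gfap rose from -5.17 to -0.78, Snap25 from -5.34 to -3.51 and Olig2 from -3.95 to -2.81. The part of any marker set in the receptor counts was not tested. Only 24 receptor genes, 2.64%, were above background on all 5 flagged arrays, where 43.2% of all genes were. The second iPS array has no flags in the files used here. In bulk samples, few cells with much RNA and many cells with little cannot be told apart.

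The highest receptor RNA was that of Olfr571, at 1.23 and 1.90 log2 units above the 75th percentile of the array in ES cells, 2.11 and 0.89 in MEFs and 2.18 and 1.76 in iPS cells. Its groups overlapped. Olfr234, Olfr462, Olfr166 and Olfr522 followed, with means over the 6 arrays from -0.91 to -1.92. Olfr462, whose H3K27me3 rose in MEFs, read -2.74 and -0.76 in ES cells, -0.53 and -1.11 in MEFs and -1.73 and -1.91 in iPS cells, with overlapping ES and MEF arrays.

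Between MEFs and ES cells, 16 of the 106 receptor genes that passed the filter were higher at 2-fold or more with a limma adjusted p under 0.05 (background 15.5%) and 0 lower (background 17.2%). Under quantile normalization 5 were higher and 7 lower, so the direction rests on the scaling. Since a gene could pass on its MEF arrays alone, this count says nothing of the receptor genes that did not pass. A gene that passed that way and was dim in ES cells could hardly be called lower, so the filter favoured rises. Fold bounds and p-values of such genes are a description and no support for a direction. Olfr438 read -0.41 and -0.14 on the MEF arrays and was not well above background on either ES array, which makes it at least 16.5-fold higher in MEFs (limma adjusted p = 0.000838). The bound takes the lowest signal well above background on each ES array in place of the dim one. Olfr1049 was at least 15.2-fold higher and Olfr507 at least 18.8-fold (limma adjusted p = 0.000972 and 0.0403). Olfr1419, at -4.75 and -3.15 in ES cells and -1.42 and -2.33 in MEFs, rose by 2.08 (limma adjusted p = 0.0457), and is the receptor whose H3K27me3 went from 0.61 and 1.06 in ES lines to 0.36 and 0.37 in MEFs (limma adjusted p = 0.0937). Without the duplicate MEF array 23 receptor genes were higher and 6 lower, without the first MEF array 473 and 11, and without the first ES array 6 and 0. With the scanner files as filed, 0 were higher and 2 lower, of only 40 receptor genes tested.

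Between iPS and ES cells 0 receptor genes were called (limma, background 0.103% higher and 0.0859% lower), and 9 had an unadjusted p under 0.05. Between iPS cells and MEFs, 6 were higher (background 17.7%) and 15 lower (background 16.7%). Olfr438 was at least 23.8-fold lower in iPS cells, judged on the 1 flagged iPS array and under the same filter. Under quantile normalization the split turned to 14 higher and 6 lower, and with normexp it was 0 and 14. The count of 21 became 488 without the first MEF array, 38 without the duplicate, 10 without the second iPS array and 0 with the scanner files as filed. Between iPS and ES cells it became 13 without the first MEF array, 8 without the duplicate, 1 without the first iPS array and 4 as filed. Nothing in the labels says that the arrays of a pair came from separate cultures, so these p-values measure the spread between arrays.

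RNA detection is given beside H3K27me3 as a description. Of 699 receptors named on both platforms, 87 had detected RNA, or 12.4%. It was detected for 4 of 19 receptors with an H3K27me3 level of 1 or more (21.1%), for 6 of 34 that were higher in MEFs (17.6%) and for 45 of 398 that were lower (11.3%).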

How the data were processed

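Members and gene lists were chosen with earlier results of these data known. Promoter arrays were scanned in 2 colours; the authors' deposited files hold red and green intensity values from Agilent Feature Extraction 9.1.3.1, per the file headers, already background-subtracted and dye-normalised. The deposited value tables give a log10 ratio for these arrays, per the file headers, used as an alternative. The expression arrays have 1-colour intensity values from Feature Extraction 9.5.1.1, per the file headers, with a deposited value table. Cy5 holds the immunoprecipitated and Cy3 the input DNA by the label fields. The labelling text of the MEF H3K27me3 samples says the reverse, and these arrays correlated at 0.608 to 0.703 with those of the other lines as labelled. No label or header used here names the genome build of the array coordinates.

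From these, log2(red/green) of each probe was centred on the median of its array and averaged per gene name with at least 3 probes. For RNA, log2 intensity minus the 75th percentile of its array was tested for genes that passed a background filter. A gene passed if well above background on both ES arrays, on both MEF arrays or on the 1 flagged iPS array. limma 3.58.1 (R 4.3.3) fitted 3 groups per mark, with Benjamini-Hochberg adjustment over all names. RNA replicate numbers did not pair the arrays. The script was tested on simulated data with 200 of 17873 names changed. At a change of 2 log2 units, 162 of 200 were recovered for H3K4me3 and 165 of 200 for H3K27me3, and at 1 log2 unit 0. For RNA, 0 of 200 were recovered at 2 log2 units and 142 of 200 at 4. In the data a far larger share was called for H3K27me3 between MEFs and ES cells (25.7%), which eases the adjusted p. These recoveries therefore do not give the power of the tests above.

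Receptors named are the 10 highest in 1 line and 3 lowest per mark, up to 10 called per comparison by size (or the 5 largest without overlap), the 5 with most RNA, locus borders and other genes inside the 3 largest loci; further receptors were named after their values were seen. Alternatives changed the background correction, centring, array scale, probe filter, probe summary, probe minimum and lines, and for RNA also the normalization (quantile).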

Additional observations from a re-analysis of the deposited data

How the results depend on the processing

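The 4 H3K4me3 calls between MEFs and ES cells became 100 with normexp, 31 with arrays scaled by MAD (6 higher, 25 lower), 11 with promoter probes only (chosen after seeing the data), 2 with at least 5 probes or no minimum, and 1 with probes within 1000 bp of the start, the median of probes or the highest 3 neighbouring probes; leaving out 1 line gave 0 to 32. The 2 calls between iPS cells and MEFs became 6 with normexp, 5 with the deposited log ratio, 19 by MAD (12 higher, 7 lower), 1 with probes above background in input or GC adjustment, and 0 within 1000 bp, by the median, the 3-probe window or no minimum (limma, 14, 17, 15 and 16 at an unadjusted p under 0.05); leaving out 1 line gave 2 to 9. The 0 receptors at an H3K4me3 level of 1 became 1 within 1000 bp or with no minimum and 9 by the window.

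For H3K27me3, the 543 calls between MEFs and ES cells became 193 within 1000 bp, 102 by the window (31.4% higher, against 8.3% in the main setting) and 331 with GC adjustment (19.3% higher); leaving out 1 line gave 117 to 502. The 58 calls between iPS cells and MEFs became 381 by MAD, 5 with no minimum, and 0 with normexp, within 1000 bp, by the median, the window or GC adjustment (limma, 411, 280, 548, 191 and 310 at an unadjusted p under 0.05); leaving out 1 line gave 11 to 111. The 27 receptors at a level of 1 became 43 and 5 at thresholds of 0.75 and 1.5, 16 by MAD and 68 by the window, and 19 to 27 with 1 line left out. The median MEF minus ES difference was -0.398 with normexp, -0.285 by MAD, -0.211 by the window and -0.35 with GC adjustment, and -0.671 to -0.44 with 1 line left out. That of H3K4me3 was -0.217 to 0.033 with 1 line left out. The iPS minus ES median of H3K4me3 was 0.141 with normexp and -0.036 to 0.045 with 1 line left out, and that of H3K27me3 -0.149 to 0.058. The cause was not tested.

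For RNA, the scanner files as filed gave 2, 4 and 0 calls (limma, 8, 6 and 0 at an unadjusted p under 0.05) in place of 16, 0 and 21 for MEF against ES, iPS against ES and iPS against MEF. These as-filed counts are of 40 receptor genes tested, against 106 in the main setting. Leaving out 1 array gave 6 to 484, 0 to 13 and 10 to 488. Detection on any 1 array gave 554 receptor genes in place of 106, and leaving out 1 array 60 to 541. With the slide as a replicate block the calls were 23, 2 and 24; same-numbered arrays correlated at -0.108 to 0.024 in their deviations, so the shared slide did not pair them. Quantile normalization gave 12, 0 and 20 calls (10 at an unadjusted p under 0.05 for the 0), with 41.7% and 70% higher in the first and last, against 100% and 28.6%. No paired analysis was possible because the numbers on the promoter samples mark the 2 arrays of a set. Scan date as a block was not run, since no ES line shares a date with a MEF line.

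Limits: 1 iPS line, 2 residual degrees of freedom and arrays of different spread bound every call. A receptor near the family's median has little signal over input, so a fall in its log ratio is relative to the array median and not an amount of mark.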
